A study of Mus musculus with 6 samples.

Results

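The insulin-like growth factor (IGF) axis was described through 10 genes chosen by name, out of 22180 genes with a measured probe set. They are the ligand genes Igf1 and Igf2, the receptor genes Igf1r, Insr and Igf2r, the adaptor genes Irs1 and Irs2, the binding protein genes Igfbp4 and Igfbp7, and Igf2bp3, which encodes an mRNA binding protein. Each gene was read from a single probe set. Where the array held several with that symbol alone, the probe set with the highest mean over the 6 arrays was taken, so that mean is a description and was not tested. The names were chosen with earlier results of these arrays known.

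The data were 6 microarrays of total RNA from sorted green fluorescent mouse leukaemia cells. There were 3 arrays of MLL-AF9 leukaemia cells from Evi1 transgenic mice (Evi1 Tg) and 3 of MLL-AF9 leukaemia cells from wild-type mice (WT), with n = 3 in each group. Both groups carried MLL-AF9, a fusion oncogene of acute myeloid leukaemia, both had the C57BL/6J strain background, and both were labelled untreated and described as whole, unfractionated leukaemia cells. Evi1 is a zinc finger transcription factor made from the gene Mecom. The sources used here do not give the promoter or form of the transgene, the age of the mice, or whether each array was a different animal. The p-values therefore cover the spread among these arrays alone, and part of it may be technical. With 6 arrays the precision is limited throughout.

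IGF-1 and IGF-2 are secreted growth factors that signal through the tyrosine kinase receptor encoded by Igf1r and through the closely related insulin receptor. The activated receptors phosphorylate IRS adaptors, which recruit PI3 kinase and so switch on AKT and hold FOXO transcription factors out of the nucleus. The IGF-2 receptor has no kinase. It removes IGF-2 from the cell surface for degradation, and it carries newly made lysosomal enzymes that bear mannose 6-phosphate to the lysosome. Secreted IGF binding proteins hold the ligands and so limit or prolong their action.

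Median intensities per array lay between 51.6 and 55.4. A background level of 78.4 was taken as the 90th percentile of the mean intensities of 68 genes that are silent in blood cells, and 43.5% of genes had a mean above it. All 16 of 16 listed myeloid leukaemia markers had means above it. None of the 16 passed the limma test. Without overlap of the groups, 3 were lower (Csf2ra, Csf3r and Ptprc) and 3 higher (Mpo, Elane and Meis1), against 7.47% and 7.08% of all genes. Mpo, the myeloperoxidase gene, had 1192, 863 and 525 in Evi1 Tg, against 92.7, 68.1 and 252 in WT (log2 difference 2.80, SE 0.507, limma adjusted p = 0.139), and WT 2 was below background. Elane had a difference of 0.44 (SE 0.131) and Meis1 one of 0.85 (SE 0.265). Mecom averaged 38.6 in Evi1 Tg and 36.9 in WT, below that level (log2 difference 0.06, SE 0.0892, limma adjusted p = 0.890), so these values do not check the genotype labels. Stromal and endothelial markers had means above background for 3 of 18 genes, Pdgfrb, Pecam1 and Acta2, and the other 15, among them Cxcl12, Cdh5 and Col1a1, lay below it. Pdgfrb, a marker of perivascular cells, had 129, 140 and 103 in Evi1 Tg, against 56.0, 84.0 and 74.6 in WT (log2 difference 0.80, limma adjusted p = 0.195), with no overlap. Acta2 had a difference of -0.22, also without overlap, and Pecam1 one of -0.49 with overlap. The summed intensity of the 18 markers ran from 1110 to 1265 in Evi1 Tg and from 1100 to 1472 in WT. Among erythroid markers 1 of 8 lay above background, Car2, with 137, 132 and 228 in Evi1 Tg, against 363, 260 and 522 in WT (limma adjusted p = 0.234). The summed intensity of the 8, which includes Car2, ran from 484 to 551 in Evi1 Tg and from 593 to 850 in WT. Of the 8 differences 4 lay below 0 and 4 above, with a median of -0.00457. Apart from Car2 (-1.19), they lay between -0.12 (Ermap) and 0.14 (Car1), all at means below background. Macrophage markers lay above background for 5 of 14 genes, with C1qa, C1qb and C1qc below it. Their sums ran from 5270 to 5933 in Evi1 Tg and from 4285 to 6060 in WT. Adgre1, which encodes F4/80, had 477, 411 and 659 in Evi1 Tg, against 1374, 1016 and 969 in WT (limma adjusted p = 0.139). Cd68 of the same list lay the other way, with 3480, 3463 and 3117 in Evi1 Tg, against 2359, 2653 and 1576 in WT (log2 difference 0.64, limma adjusted p = 0.302). Neither gene overlapped between the groups, while Csf1r, Vcam1 and Apoe did. Of the B cell markers 0 of 9 lay above background, of the T and NK cell markers 2 of 12 and of the megakaryocyte markers 4 of 7. The part of these cell types in the results below was not tested.

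Of the 10 genes, 1 was lower in Evi1 Tg and 0 were higher by limma with Benjamini-Hochberg adjustment over all 22180 genes, where 0.113% of all genes were called, 0.104% lower and 0.00902% higher. The gene was Igf2r. At an unadjusted p under 0.05, 3 of the 10 were lower and 0 higher, against 5.8% and 4.5% of all genes (10.3% in either direction). The same 3 genes, Igf2r, Igfbp7 and Insr, were those whose arrays did not overlap between the groups, against 14.6% of all genes without overlap, 7.47% on the lower and 7.08% on the higher side. The median log2 difference of the 10 genes was -0.06, and that of all genes was 0.01. The means of 6 of the 10 genes lay above background. The other 4, Igf1, Igf2, Irs1 and Irs2, lay below it on 6 of 6 arrays. With 3 arrays a group, 0.1 is the smallest two-sided p that exact permutation allows.

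**Figure D1:**
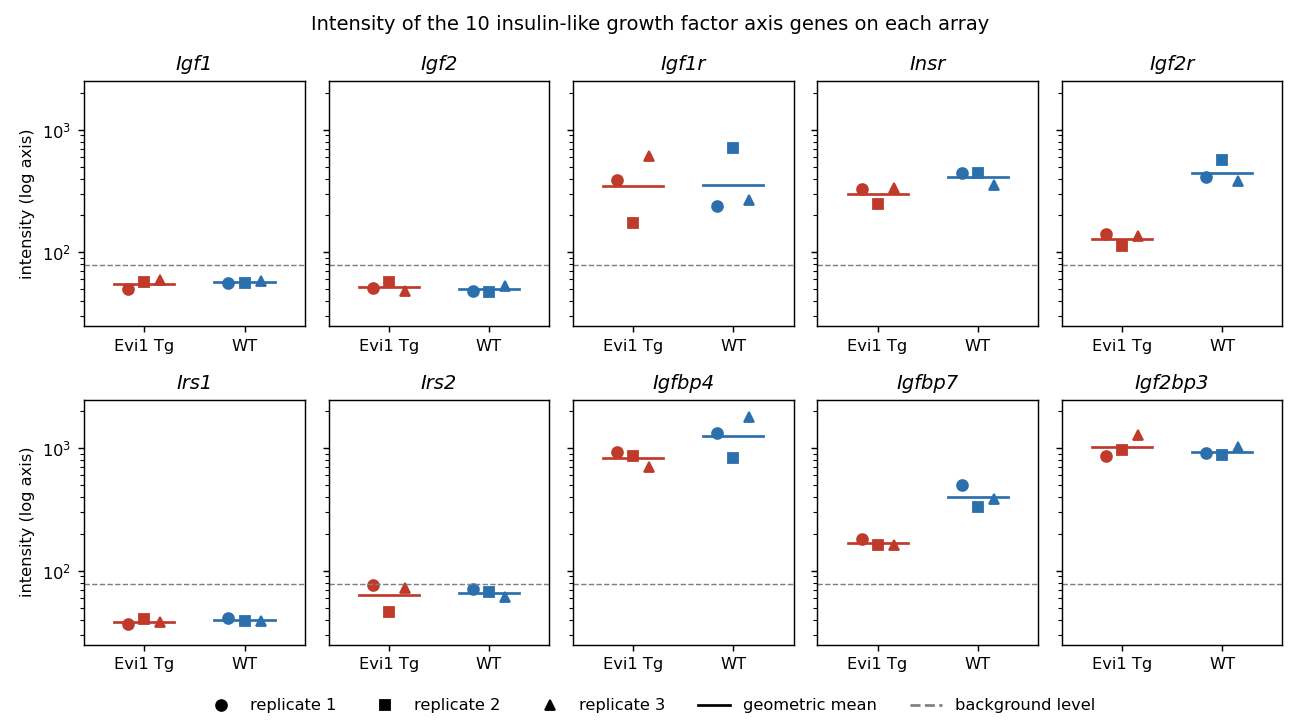
Intensity (log axis, arbitrary units) of each of the 10 genes on each array, with Evi1 Tg left of WT in each panel. Points are arrays, with a symbol for each replicate number, the horizontal bars are geometric means and the dashed line is the background level of 78.4; probe sets of different genes are not comparable in level. Igf2r, Igfbp7 and Insr separate the groups, Igf1r spreads widely within both, and Igf1, Igf2, Irs1 and Irs2 stay below the dashed line.

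Neither ligand gene was above background. Igf1 had intensities of 49.7, 56.8 and 59.0 in Evi1 Tg 1, 2 and 3, against 56.5, 56.0 and 58.8 in WT 1, 2 and 3. Igf2 had 51.0, 57.2 and 48.2 in Evi1 Tg, against 48.5, 47.8 and 53.2 in WT. The groups overlapped for both genes. The log2 difference was -0.05 for Igf1 (95% interval -0.27 to 0.16, limma adjusted p = 0.919) and 0.06 for Igf2 (95% interval -0.17 to 0.29, limma adjusted p = 0.904). At this signal over background a level of either transcript in these cells was not detectable, and the intervals bound the probe signal rather than the transcript. Of the wider list of IGF, insulin and relaxin ligands, 7 of 9 genes were measured and 0 had a mean above background. In that list 0 genes passed the limma test, at an adjusted or an unadjusted p under 0.05. Ins2 had a difference of 0.26 (SE 0.131), Insl5 one of 0.12 (SE 0.0748) and Rln1 one of 0.10 (SE 0.124). Ins2 is also among the silent genes that set the background level, so its place below that level is no separate result.

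Igf2r fell in Evi1 Tg. Its intensities were 141, 113 and 137 in Evi1 Tg 1, 2 and 3, against 415, 564 and 383 in WT 1, 2 and 3. The groups lay far apart, and the lowest WT array was 2.72 times the highest Evi1 Tg array. Every array was above the background level, although the Evi1 Tg arrays were near it, which can compress the difference. The log2 difference was -1.79 (SE 0.165, 95% interval -2.18 to -1.40, n = 3 per group, limma adjusted p = 0.0239), a 3.46-fold higher geometric mean in WT (129 in Evi1 Tg and 448 in WT). Over all genes, 27 had a larger fall. The difference stayed between -1.90 and -1.62 over 15 alternative settings, but the call held in 8 of them. Among the others, it was lost without Evi1 Tg 1 (limma adjusted p = 0.163), Evi1 Tg 2 (0.147), Evi1 Tg 3 (0.0530) or WT 1 (0.0907), with Evi1 Tg 1 and 2 averaged (0.146) and in a test without moderation of the variance (0.395). In RNA from bulk cells, fewer cells that express a gene and less of its RNA per cell cannot be told apart.

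**Figure D2:**
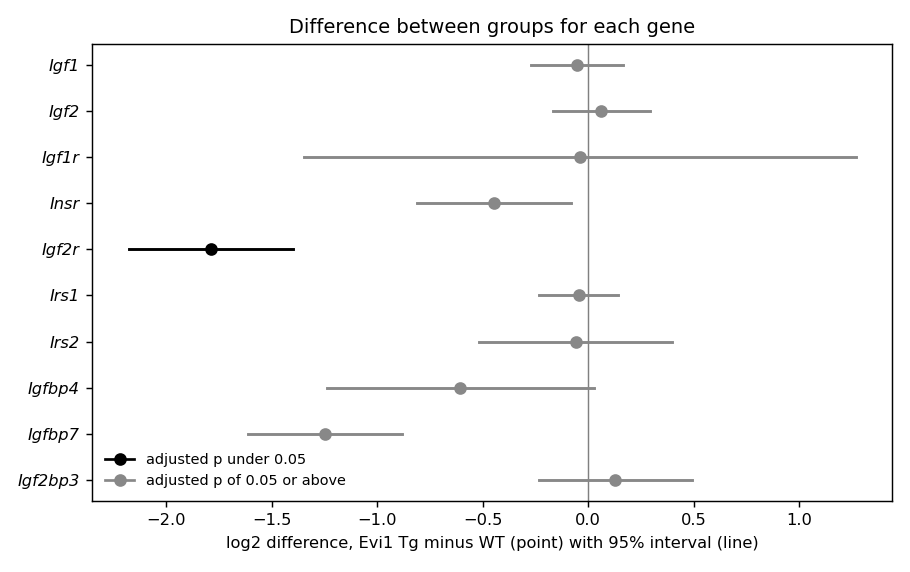
Log2 difference of each of the 10 genes, Evi1 Tg minus WT (horizontal axis), with its 95% interval from limma. The interval of Igf2r runs from -2.18 to -1.40, that of Igf1r from -1.35 to 1.27, and the point of Igf2r is black because its adjusted p is under 0.05.

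Promoter windows are shown for Igf2r and Igfbp7, the genes with the largest differences, for Igf1r, the receptor gene whose groups overlapped, and for Igf1, a ligand gene below background. Sequences come from RefSeq on build GRCm38.p6, from 250 bases before to 50 bases after each annotated start, 5′ to 3′ on the strand of the gene. Capitals mark GGGCGG (the GC box, on either strand) and CACGTG (an E box). The windows are chr17:12769657-12769956 (minus strand) for Igf2r, chr5:77407996-77408295 (minus strand) for Igfbp7, chr7:67952007-67952306 (plus strand) for Igf1r and chr10:87860861-87861160 (plus strand) for Igf1.
Igf2r: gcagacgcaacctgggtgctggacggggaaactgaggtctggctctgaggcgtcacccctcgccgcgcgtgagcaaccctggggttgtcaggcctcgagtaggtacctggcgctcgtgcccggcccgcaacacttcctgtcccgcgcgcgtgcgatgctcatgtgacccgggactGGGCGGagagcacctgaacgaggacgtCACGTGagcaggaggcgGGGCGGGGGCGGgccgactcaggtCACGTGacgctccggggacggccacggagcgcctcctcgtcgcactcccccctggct
Igfbp7: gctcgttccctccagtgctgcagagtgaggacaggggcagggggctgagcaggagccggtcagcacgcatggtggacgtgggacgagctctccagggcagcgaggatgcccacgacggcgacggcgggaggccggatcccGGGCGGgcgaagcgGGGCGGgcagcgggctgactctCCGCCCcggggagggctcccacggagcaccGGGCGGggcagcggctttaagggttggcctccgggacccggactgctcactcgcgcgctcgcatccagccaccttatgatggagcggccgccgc
Igf1r: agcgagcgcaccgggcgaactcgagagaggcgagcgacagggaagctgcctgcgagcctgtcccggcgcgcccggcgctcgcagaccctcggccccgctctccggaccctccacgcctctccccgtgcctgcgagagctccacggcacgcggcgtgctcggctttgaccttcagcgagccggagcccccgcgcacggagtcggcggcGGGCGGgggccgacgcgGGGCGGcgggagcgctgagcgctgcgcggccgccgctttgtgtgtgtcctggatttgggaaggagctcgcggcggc
Igf1: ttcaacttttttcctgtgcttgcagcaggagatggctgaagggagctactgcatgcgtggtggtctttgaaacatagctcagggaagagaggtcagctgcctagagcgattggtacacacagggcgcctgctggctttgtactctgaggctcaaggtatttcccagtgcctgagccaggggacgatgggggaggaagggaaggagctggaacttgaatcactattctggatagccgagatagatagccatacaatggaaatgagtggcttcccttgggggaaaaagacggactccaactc

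An entry was found for 9 of the 10 genes, with 4 windows for Igf2. The windows of Igf2r and Igfbp7 held 34 and 33 CpG dinucleotides, that of Igf1r 48 and that of Igf1 6, against a median of 7 over 32851 windows. Those of Irs1 and Irs2, genes also below background, held 28 and 41 CpG dinucleotides, with 2 GC boxes and 1. Igf2r had 3 GC boxes, Igfbp7 4, Igf1r 2 and Igf1 0, and 35.7% of all windows held at least 1. Both the motif of the first EVI1 zinc finger domain (GACAAGATA, in 0.119% of all windows) and that of the second (GAAGATGAG, in 0.399%) were searched on either strand, with 0 matches in the windows of the 9 genes. The FOXO motif GTAAACA, present in 3.65% of all windows, also had 0 matches there. At these rates 0 matches were likely in so few windows, so they say little about EVI1 or FOXO sites. The Igf2r window held CACGTG 2 times, a motif added after that window had been read. CACGTG occurred in 7.15% of all windows, among them those of Irs1 and Irs2, with 1 match each, and of Igf2bp3, with 2. These matches describe letters and not bound sites.

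Among the signalling receptors, Igf1r did not differ between the groups beyond its spread. Its intensities were 392, 173 and 614 in Evi1 Tg 1, 2 and 3, against 239, 705 and 267 in WT 1, 2 and 3. The highest array was 3.55 times the lowest within Evi1 Tg and 2.95 times within WT, and each group spanned most of the range of the other. The log2 difference was -0.04 (SE 0.554, limma adjusted p = 0.993), and its 95% interval from -1.35 to 1.27 leaves room for a difference of more than a doubling either way. The sign depended on single arrays, with a difference of 0.46 without Evi1 Tg 2 and 0.46 without WT 2, and -0.45 as the lowest value when another array was left out. The pooled standard deviation within groups was 0.89 on the log2 scale, larger than that of 99.5% of the genes above background, whose median was 0.19.

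The arrays with the highest Igf1r also had the highest median of the neutrophil markers, though single markers differed. Over 12 neutrophil markers, among them Ngp, Camp and Ly6g, the median log2 deviation from each gene's mean over the 6 arrays was -0.31, -1.05 and 0.53 in Evi1 Tg 1, 2 and 3, against -0.05, 1.35 and -0.51 in WT 1, 2 and 3. WT 2 and Evi1 Tg 3 were the highest arrays for Igf1r and for this median, and Evi1 Tg 2 was the lowest for both. Mmp8 of the same list was instead highest in Evi1 Tg 2, with 663, 945 and 497 in Evi1 Tg, against 379, 663 and 371 in WT. Retnlg lay below background on every array. Of these 12 markers 9 had means above background, and their summed intensity ran from 4208 to 15210 in Evi1 Tg and from 4567 to 15484 in WT. The part of neutrophil-like cells in the Igf1r values was not tested.

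**Figure D3:**
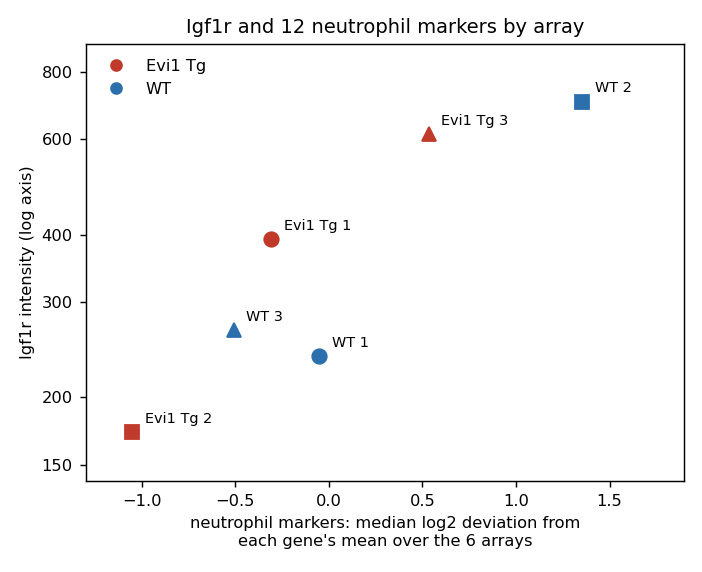
Igf1r intensity (log axis, arbitrary units) against the median log2 deviation of 12 neutrophil markers on the same array. Each point is 1 of 6 arrays, red for Evi1 Tg and blue for WT; WT 2 (705) and Evi1 Tg 3 (614) lie at the upper right and Evi1 Tg 2 (173) at the lower left, while the 3 arrays between them do not follow the same order on both axes.

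Insr, which encodes the insulin receptor, did not pass the test. It had intensities of 330, 248 and 337 in Evi1 Tg 1, 2 and 3, against 446, 444 and 351 in WT 1, 2 and 3. The groups did not overlap, but the lowest WT array was 1.04 times the highest Evi1 Tg array. The log2 difference was -0.45 (SE 0.155, 95% interval -0.81 to -0.08, limma adjusted p = 0.380, unadjusted p = 0.0233). It kept its sign in 15 of 15 alternatives, with values from -0.56 to -0.30, and passed in 0 of them. The nearness of WT 3 to the Evi1 Tg arrays sets the narrow gap, and without WT 3 the difference was -0.56 (limma adjusted p = 0.118).

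The adaptor genes were below background. Irs1 had 36.8, 40.0 and 37.9 in Evi1 Tg, against 41.0, 38.7 and 38.8 in WT, and differed by -0.05 on the log2 scale (95% interval -0.23 to 0.14, limma adjusted p = 0.919). Irs2, which is also a known target of FOXO factors, had 76.3, 46.4 and 72.9 in Evi1 Tg, against 71.1, 67.3 and 60.9 in WT. Evi1 Tg 2 was the low array for Irs2, and the difference was -0.06 over all arrays (95% interval -0.52 to 0.40, limma adjusted p = 0.961) and 0.17 without that array. A further probe set of Irs1, and one of Irs2 annotated with 2 symbols, had differences of -0.00395 and -0.00478, and both lay below background too.

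Around these members, the list of receptors and receptor adaptors had 28 of 29 genes measured, with 1 called lower (Igf2r itself) and 0 higher. At an unadjusted p under 0.05, 5 of 28 were lower and 1 was higher, against 5.8% and 4.5% of all genes. Its median log2 difference was -0.07. Ptpn1, the phosphatase PTP1B that dephosphorylates the insulin receptor, had 373, 341 and 331 in Evi1 Tg, against 635, 518 and 489 in WT (log2 difference -0.64, SE 0.118, limma adjusted p = 0.144). Sh2b2, the adaptor APS that binds the activated insulin receptor, had 733, 682 and 648 in Evi1 Tg, against 431, 531 and 322 in WT (difference 0.71, SE 0.177, limma adjusted p = 0.232). Grb14, an inhibitory adaptor of the insulin receptor, had a difference of -0.51 (SE 0.129) and Gab1, a docking protein, one of -0.69 (SE 0.225). The groups did not overlap for these 4 genes, the next by p after Igf2r, and none of the 4 passed. Without overlap, 6 of the 28 were lower and 2 higher, against 7.47% and 7.08% of all genes.

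Of the binding proteins, Igfbp7 showed the larger difference but stopped short of the threshold. Igfbp7, a secreted protein that binds IGFs weakly, had 182, 162 and 161 in Evi1 Tg 1, 2 and 3, against 498, 330 and 388 in WT 1, 2 and 3. The groups were well apart, the lowest WT array being 1.82 times the highest Evi1 Tg array. The log2 difference was -1.25 (SE 0.154, 95% interval -1.61 to -0.89, limma adjusted p = 0.0571), and 69 of all genes had a larger fall. It passed in 6 of 15 alternatives, with adjusted p-values from 0.0290 to 0.433 and differences from -1.39 to -1.09. Igfbp7 is abundant in endothelial and stromal cells. Of the 18 markers of those cells, 9 had a difference below 0 and 9 above. Pdgfrb, Pecam1 and Acta2 were above background, with differences of 0.80, -0.49 and -0.22. Below background, Lepr and Pdgfra had differences of -0.56 and -0.34 without overlap. Of the 18 markers, 3 were lower and 1 higher without overlap, against 7.47% and 7.08% of all genes. The part of such cells in the Igfbp7 values was not tested.

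Igfbp4, which binds IGFs and is cut by the protease PAPP-A, had 936, 867 and 697 in Evi1 Tg 1, 2 and 3, against 1336, 837 and 1786 in WT 1, 2 and 3. The WT 2 value fell inside the Evi1 Tg range, while WT 1 and WT 3 were above them. The log2 difference was -0.61 (SE 0.268, 95% interval -1.24 to 0.03, limma adjusted p = 0.508). Without WT 2 it was -0.90 (limma adjusted p = 0.193) and without WT 3 -0.35 (limma adjusted p = 0.527), so its size rested on single WT arrays.

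The wider list of binding proteins and their proteases had 15 of 15 genes measured, of which 3 had means above background: Igfbp4, Igfbp7 and Stc2. Stanniocalcin 2, the product of Stc2, inhibits PAPP-A. Stc2 had 148, 125 and 112 in Evi1 Tg, against 150, 172 and 220 in WT (log2 difference -0.48, SE 0.167, limma adjusted p = 0.378), with Evi1 Tg 1 just under WT 1. By limma 0 of the 15 passed, and 2 were lower and 0 higher at an unadjusted p under 0.05, against 5.8% and 4.5% of all genes. Igfbp1, Igfbp2, Igfbp3, Igfbp5 and Igfbp6 and the protease genes Pappa and Pappa2 lay below background, with group means between 37.5 and 73.3.

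Igf2bp3, a fetal mRNA binding protein that is known to be abundant in leukaemias with MLL fusions, was well above background on every array. It had 868, 974 and 1283 in Evi1 Tg 1, 2 and 3, against 910, 881 and 1034 in WT 1, 2 and 3. The groups overlapped, and the log2 difference was 0.13 (SE 0.154, 95% interval -0.24 to 0.49, limma adjusted p = 0.865). Evi1 Tg 3 was the high array, and without it the difference was -0.03. In the list of IGF2 mRNA binding proteins and the fetal programme, 9 of 13 genes were measured, 0 passed the limma test, and 0 were lower and 1 higher at an unadjusted p under 0.05, where 4.5% of all genes were higher. That gene was Lin28b, a fetal RNA binding protein that blocks let-7 maturation. It had 65.4, 67.1 and 52.8 in Evi1 Tg, against 39.7, 36.9 and 37.6 in WT (log2 difference 0.69, SE 0.112, limma adjusted p = 0.106). The groups did not overlap, but every array was below background. Lin28a had a difference of 0.38 (SE 0.196) and Sox17 one of 0.12 (SE 0.110).

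The mannose 6-phosphate route, the other function of the Igf2r product, was examined next. M6pr, the cation-dependent receptor that shares this task, had 2070, 1904 and 1816 in Evi1 Tg, against 2007, 2015 and 2279 in WT. The groups overlapped, and the difference on the log2 scale was -0.12 (SE 0.0941, limma adjusted p = 0.758). In the sorting list 23 of 23 genes were measured and 20 of 23 had a difference below 0, against 46.5% of all genes. All 23 had means above background, against 43.5% of all genes. The median was -0.06. Igf2r was the 1 gene called lower and 0 were higher, with 4 lower and 1 higher at an unadjusted p under 0.05, against 5.8% and 4.5% of all genes. Ap1s2, a subunit of the adaptor complex AP-1, had 132, 145 and 184 in Evi1 Tg, against 274, 258 and 457 in WT (log2 difference -1.07, SE 0.235, limma adjusted p = 0.195). The sorting receptor gene Sort1 had a difference of -0.33 (SE 0.111).

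The acid hydrolases that travel by this route had 25 of 30 genes measured. A difference below 0 was found for 22 of the 25, against 46.5% of all genes. The median was -0.18, between -0.20 and -0.15 when each array was left out in turn. By limma 0 passed, and 6 of 25 were lower and 0 higher at an unadjusted p under 0.05, against 5.8% and 4.5% of all genes. Ctsh, a cathepsin, had 82.2, 78.1 and 90.8 in Evi1 Tg, against 149, 190 and 126 in WT (log2 difference -0.87, SE 0.154, limma adjusted p = 0.133). The lysosomal mannosidase gene Man2b1 had a difference of -0.62 (SE 0.155) and Idua, which encodes iduronidase, one of -0.31 (SE 0.0858). The groups did not overlap for these 3 genes, which had the smallest p-values of the list by limma. Without overlap, 6 of the 25 were lower and 0 higher, against 7.47% and 7.08% of all genes.

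**Figure D4:**
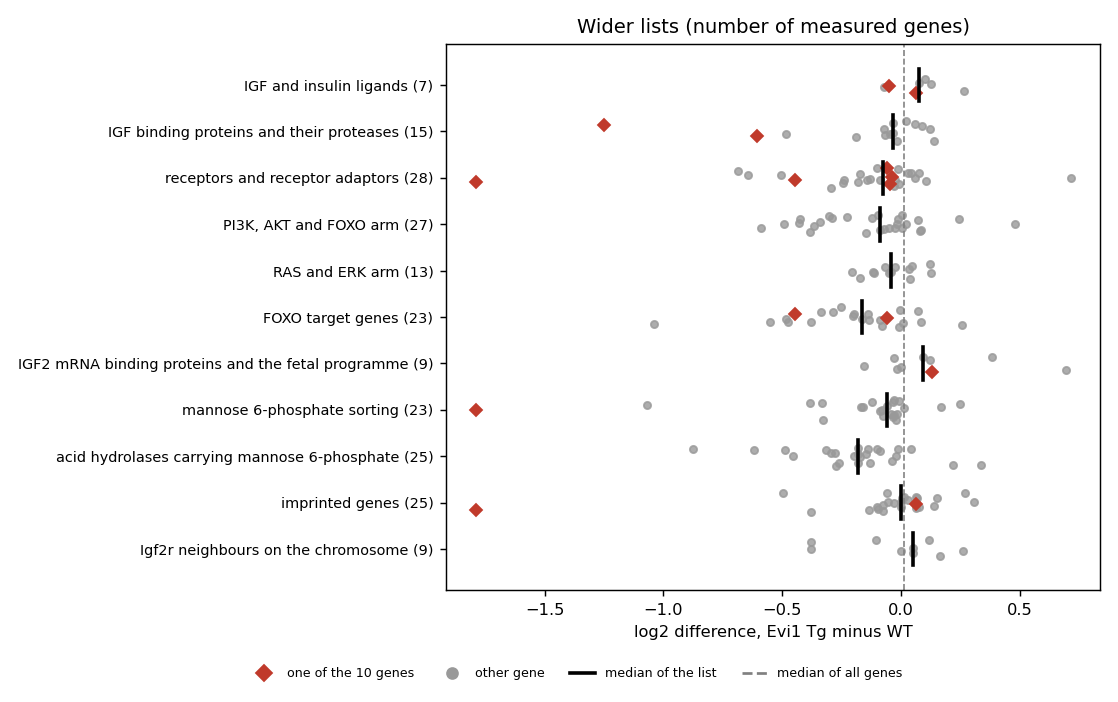
Log2 difference, Evi1 Tg minus WT (horizontal axis), of each measured gene in 11 lists around the IGF axis, with the number measured in brackets. Red diamonds are the 10 genes, grey points other genes, black bars list medians and the dashed line the median of all genes (0.01); Igf2r at -1.79 appears in 3 lists, and the medians of the FOXO targets (-0.16) and acid hydrolases (-0.18) lie furthest to the left.

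Downstream of the receptors, 27 of 30 genes of the PI3K, AKT and FOXO arm were measured. By limma 0 passed, and 6 were lower and 1 higher at an unadjusted p under 0.05, against 5.8% and 4.5% of all genes, with a list median of -0.09. Pik3r1, the regulatory subunit p85 alpha that docks on IRS proteins, had 902, 809 and 934 in Evi1 Tg, against 1401, 1307 and 1265 in WT (log2 difference -0.59, SE 0.0914, limma adjusted p = 0.0973). Pik3r3, another regulatory subunit, had a difference of -0.49 (SE 0.0893) and Trib3, an inhibitor of AKT, one of -0.37 (SE 0.110). The groups did not overlap for these 3 genes, the leading ones by p, although the Pik3r3 mean lay below background. Without overlap, 6 of the 27 were lower and 1 higher, against 7.47% and 7.08% of all genes. In the RAS and ERK arm 13 of 20 genes were measured, 0 passed, and 0 were lower or higher at an unadjusted p under 0.05. There Rps6ka3 had a difference of -0.21, Nf1 one of 0.12 and Sos1 one of 0.12.

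Of the known FOXO targets 23 of 24 were measured, with a median difference of -0.16. A difference below 0 was found for 19 of 23, against 46.5% of all genes. By limma 0 passed, and 7 were lower and 0 higher at an unadjusted p under 0.05, against 5.8% and 4.5% of all genes. Insr and Irs2 belong to this list as well. Bcl2l11, the gene of the apoptosis inducer BIM, had 153, 157 and 170 in Evi1 Tg, against 405, 284 and 307 in WT (log2 difference -1.04, SE 0.141, limma adjusted p = 0.0772). Cdkn1a, the cell cycle inhibitor p21, had a difference of -0.48 (SE 0.106) and Sesn3, a sestrin whose mean lay below background, one of -0.48 (SE 0.114). Several of these genes are targets of other factors too, such as p53, and nuclear FOXO was not measured. As for RNA of the FOXO genes, Foxo3 read 230, 167 and 203 in Evi1 Tg, against 269, 292 and 243 in WT. It was lower without overlap, by -0.43 on the log2 scale, but did not pass (limma adjusted p = 0.335). Foxo1 (-0.03) and Foxo4 (0.0046) overlapped between the groups. Foxo6 was higher without overlap (0.24, limma adjusted p = 0.380), at a mean below background. The part of FOXO RNA in the target values was not tested.

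Igf2r is an imprinted gene, expressed in most mouse tissues from the maternal copy, and the noncoding RNA Airn runs antisense from within it. Airn had 48.7, 46.0 and 41.6 in Evi1 Tg, against 53.5, 61.9 and 62.1 in WT (log2 difference -0.38, SE 0.102, limma adjusted p = 0.256). The groups did not overlap, but every array was below background, and signal of overlapping transcripts was not separated. The 5 measured genes on either side of Igf2r in the order of the RefSeq annotation had differences from -0.38 for Airn to 0.18 for Map3k4, and 0 of the 10 passed the limma test. Of these 10 neighbours 8 had both means below background, so they say little about the region. Map3k4 had means of 184 in Evi1 Tg and 163 in WT, and Mrpl18 had 570 in Evi1 Tg and 509 in WT.

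**Figure D5:**
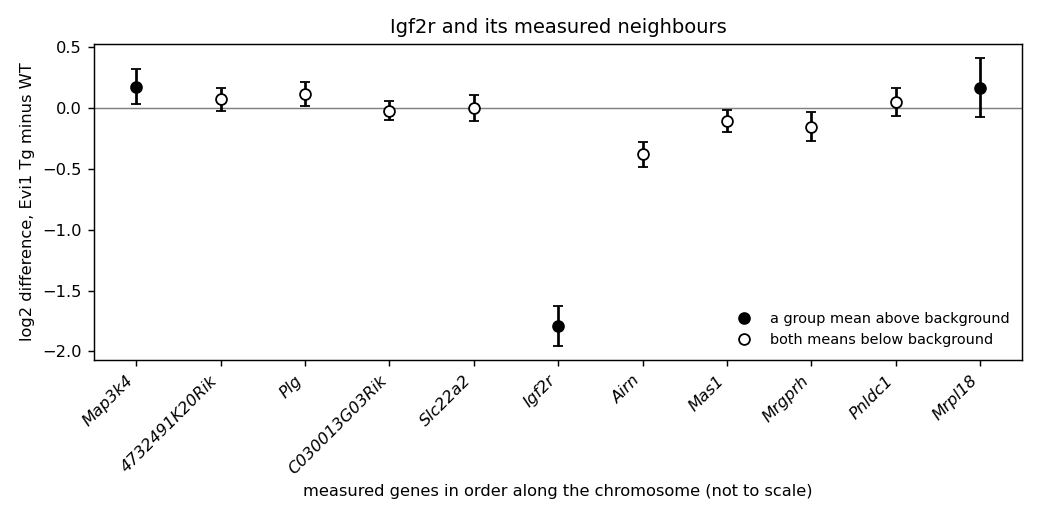
Log2 difference, Evi1 Tg minus WT (vertical axis), of Igf2r and the 5 measured genes on each side of it, in annotation order and not to scale. Bars are limma standard errors and open points have both group means below background; Igf2r lies at -1.79 and the 10 neighbours between -0.38 and 0.18.

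Over the list of imprinted genes 25 of 27 were measured and 8 had means above background. Igf2r was called lower and 0 were higher. Without adjustment, Igf2r and Airn (2 genes) were lower and Rian (1 gene) higher at a p under 0.05, against 5.8% and 4.5% of all genes. The median difference was 0.000424. A hand-made list of genes known to lie near Igf2r, 9 of 12 measured, had a median of 0.05, with 0 called by limma. At an unadjusted p under 0.05, 1 of the 9 was lower (Airn) and 0 were higher, against 5.8% and 4.5% of all genes. In that list Sod2 had a difference of -0.38 (SE 0.223) and Tcp1 one of 0.26 (SE 0.194).

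The genes whose log2 values over the 6 arrays were most like those of Igf2r, among 9640 other genes above background, were Mgmt (Pearson r = 0.995), Aplp2 (0.993), Sesn2 (0.989), Ptger4 (0.986) and Megf9 (0.986). These are descriptions over 6 arrays that fall into the 2 groups, so any gene with a clear group difference scores high, and 89 genes had an r above 0.95. Megf9 had 375, 394 and 413 in Evi1 Tg, against 764, 912 and 799 in WT (log2 difference -1.06, limma adjusted p = 0.0237). Ptger4, a prostaglandin E2 receptor gene, passed as well (difference -1.11, limma adjusted p = 0.0297). Mgmt (difference -0.88), Aplp2 (-0.70) and Sesn2 (-0.94) did not pass.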

How the data were processed

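Per the labels' protocols, the GeneChip WT PLUS kit was used to label total RNA of the sorted cells. The intensity values of the 6 arrays, linear by their range, were deposited by the authors as 1 table. No source used here gives their background correction, normalization or summary method. The array medians are close, so the values may have been scaled to each other, and a shift common to most genes would then not show.

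Of 34351 probe sets, 23521 had 1 gene symbol in the platform annotation, 1814 had several and 9016 had none there, and 23328 of the first were found in RefSeq by Entrez identifier, with 0 renamed. The probe set with the highest mean was kept for each of 22180 genes, and log2 values were used without pseudocount or filter. The difference, Evi1 Tg minus WT, was fitted with limma 3.58.1 (lmFit and eBayes, R 4.3.3) over all genes, with Benjamini-Hochberg adjustment, a threshold of 0.05 and no covariates. The procedure was tested on simulated data. Figures were drawn with matplotlib 3.10.9.

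The 10 genes and the wider lists were chosen with earlier results of these data known. The rule for named genes took the 10 genes, from each list its called genes or, with none, its leading 3 by p, the defining cell markers, and the 5 genes most like Igf2r; other names, and the genes most like Igf1r, were chosen after their values were seen. Genes with several symbols or none were not analysed here. Same-numbered arrays did not deviate together (correlations over genes of 0.189, -0.185 and 0.0614 for numbers 1, 2 and 3), so the numbers were not taken as pairs. The alternatives were other normalizations, a filter on dim genes, other variance models, weighting of arrays, the replicate number as a block, probe sets averaged per gene, averaging Evi1 Tg 1 and 2, and leaving out each array.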

Additional observations from a re-analysis of the deposited data

How the results depend on the processing

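Of 146 differences of the 10 genes under the alternatives, 126 kept their sign and their side of the threshold. For Igf2r the call was lost in 7 of 15 alternatives, and for Igfbp7 it was gained in 6 of 15, in both with the sign kept in 15 of 15. The number of the 10 genes called lower, 1 as reported, was 2 with median centring, with dim genes left out, with trend and robust settings and with array weights. It was 0 with the replicate block, without moderation and with Evi1 Tg 1 and 2 averaged, and from 0 to 2 when each array was left out. None of the 10 was called higher under any of the 15 alternatives. The block is given although the replicate numbers did not pair the arrays; with it the adjusted p of Igf2r was 0.109 and that of Igfbp7 0.0824. The sign turned for Igf1r with Evi1 Tg 1 and 2 averaged (0.17), without Evi1 Tg 2 (0.46) and without WT 2 (0.46), for Igf1 without Evi1 Tg 1 (0.0202), for Igf2 and Irs2 without Evi1 Tg 2 (-0.0061 and 0.17) and for Igf2bp3 without Evi1 Tg 3 (-0.0315). When each array was left out in turn, these differences ran from -0.45 to 0.46 for Igf1r, from -0.10 to 0.0202 for Igf1, from -0.0061 to 0.12 for Igf2, from -0.19 to 0.17 for Irs2 and from -0.0315 to 0.25 for Igf2bp3.

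Among all genes tested, 23 were called lower and 2 higher. The numbers were 82 and 32 with array weights, 9 and 0 with the replicate block, 0 and 0 without moderation and 6 and 0 with Evi1 Tg 1 and 2 averaged. There were 6 higher with dim genes left out and 6 with trend and robust settings. Leaving out each array gave 2 to 173 lower and 0 to 383 higher, the most without WT 3. Of the 194 measured genes of the 11 wider lists, 1 was called lower, against 2 with median centring, dim genes left out, and trend and robust settings, 5 lower and 1 higher with array weights, 0 lower with the replicate block, without moderation and with Evi1 Tg 1 and 2 averaged, and 0 to 8 when each array was left out, the most without WT 3. The checks on the wider lists were chosen after seeing the data. The cause of these shifts was not tested. Settings which leave out or average arrays have fewer samples, and among them the number of calls over all genes fell in some and rose in others. Signal over background limits what Igf1, Igf2, Irs1 and Irs2 can show.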

Other observations

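The genes whose log2 values over the 6 arrays were most like those of Igf1r, among 9640 other genes above background, were Il18rap (Pearson r = 0.991), which encodes a subunit of the interleukin 18 receptor, Relt (0.990), a member of the tumour necrosis factor receptor family, Galns (0.989), a lysosomal sulfatase, Arid3a (0.989), a DNA binding protein, and Ctns (0.984), the lysosomal cystine transporter. They were picked after the Igf1r values had been seen, and the correlations describe 6 arrays. Il18rap had 235, 112 and 408 in Evi1 Tg 1, 2 and 3, against 136, 386 and 160 in WT 1, 2 and 3, so WT 2 and Evi1 Tg 3 were again the highest arrays and Evi1 Tg 2 the lowest. Their differences between the groups lay between -0.03 for Arid3a and 0.12 for Il18rap, and none of the 5 passed the limma test. There were 19 genes with an r above 0.95 to Igf1r.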
